A study of Mus musculus with 10 samples.

Results

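Mouse keratinocytes grown as primary cultures were compared with keratinocytes taken straight from the epidermis, both from control animals. The comparison rested on 5 of the 10 arrays of the series, which were the 3 arrays labelled as cultured primary wildtype cells and the 2 labelled as freshly isolated wildtype cells. Wildtype is the word of the titles. The genotype field gives these cells as RhoA fl/+ K5 cre, so every control, cultured or fresh, carried 1 floxed RhoA allele together with a Cre recombinase under the keratin 5 promoter, which is active in basal keratinocytes of stratified epithelia. The other 5 arrays (3 cultured, 2 fresh) are labelled RhoA-null, RhoA fl/fl K5 cre, and are called the arrays labelled KO. Their Rhoa signal went against that label in fresh cells, as given beside their values. They entered only where they are named. The labels give skin as the tissue and call the samples biological replicates. They name no animals, and give no age, culture medium, calcium level or days in culture. The spread behind each p-value is that of these samples, whatever its source.

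The epidermis renews itself from a basal layer of dividing keratinocytes attached to the basement membrane. Cells that leave this layer stop dividing, replace keratins 5 and 14 with keratins 1 and 10, and then make the proteins and lipids of the cornified barrier. Keratinocytes at a wound edge, or placed in culture, are known to switch on another set of keratins (6, 16 and 17), to migrate and to divide. A fresh epidermal preparation also holds hair follicle keratinocytes, Langerhans cells, resident T cells and melanocytes beside the interfollicular keratinocytes.

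Each value below is a percentile rank, the position of a probe set among all 45037 probe sets of its own array, with 100 for the brightest. Ranks were used because signals of the 2 conditions were on different scales. The median signal was 7.75 to 8 on the cultured control arrays and 64.3 to 64.8 on the fresh ones. The 55th percentile corresponded to a signal of 10.7 to 10.96 in culture and of 81.95 to 83.6 in fresh cells. Cultured positions below about 55 were therefore at a floor. No order is read among them, and a rise from a low fresh position to a cultured position near that floor is not read as a change. Where a fall ends at this floor, its size, SE and p-value include order within it. A percentile rank is a relative position within an array, so a difference says where a gene moved among other genes and not by how many molecules. All cultured arrays shared 1 scale and all fresh arrays the other, so what the authors' processing did to each condition and what culture did cannot be told apart in any comparison below.

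Replicates were close, and the 2 conditions were far apart. Rank correlations between arrays of 1 group were 0.995 to 0.997 in culture and 0.992 in fresh cells. Those between cultured and fresh control arrays were at least 0.696 and at most 0.709. The median SD within a group was 0.649 points in culture and 0.623 points in fresh cells, against a median absolute difference between the conditions of 7.42 points. Of 11757 autosomal genes tested with limma, 9862 (83.9%) passed an adjusted p of 0.05, of which 4780 (40.7%) were higher and 5082 (43.2%) lower in culture. In 10576 genes (90%) the cultured and fresh arrays did not overlap. With a call this common, a list of genes is described below mainly by its members that passed and differed by at least 10 points. Of all genes, 2158 (18.4%) did so upwards and 2481 (21.1%) downwards. These shares, with the 40.7% and 43.2% above, belong beside the counts of every list below. A difference of at least 30 points was called for 538 (4.58%) and 886 genes (7.54%). These counts, and those of the lists and of the arrays labelled KO, use ranks as they stand. They include rises to near the cultured floor, which are not read for single genes, and falls whose size depends on order within it. With ranks below 55 set to 55, 4242 genes passed as higher and 4659 as lower at any size, of 11108 tested. Probe sets of 1 gene did not always move together. Among 4651 genes with 2 or more called probe sets, 1688 (36.3%) had calls in both directions, and among 394 genes with 2 or more probe sets past 30 points 37 (9.39%) did. Near the top of the arrays the direction also depended on the scale. The highest signal was 111660 to 123446 on the cultured control arrays and 32443 to 32471 on the fresh ones. The part of this difference in the turns was not tested. Bright genes whose direction turned with the scale are given as values, or with that turn in the same sentence.

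**Figure D1:**
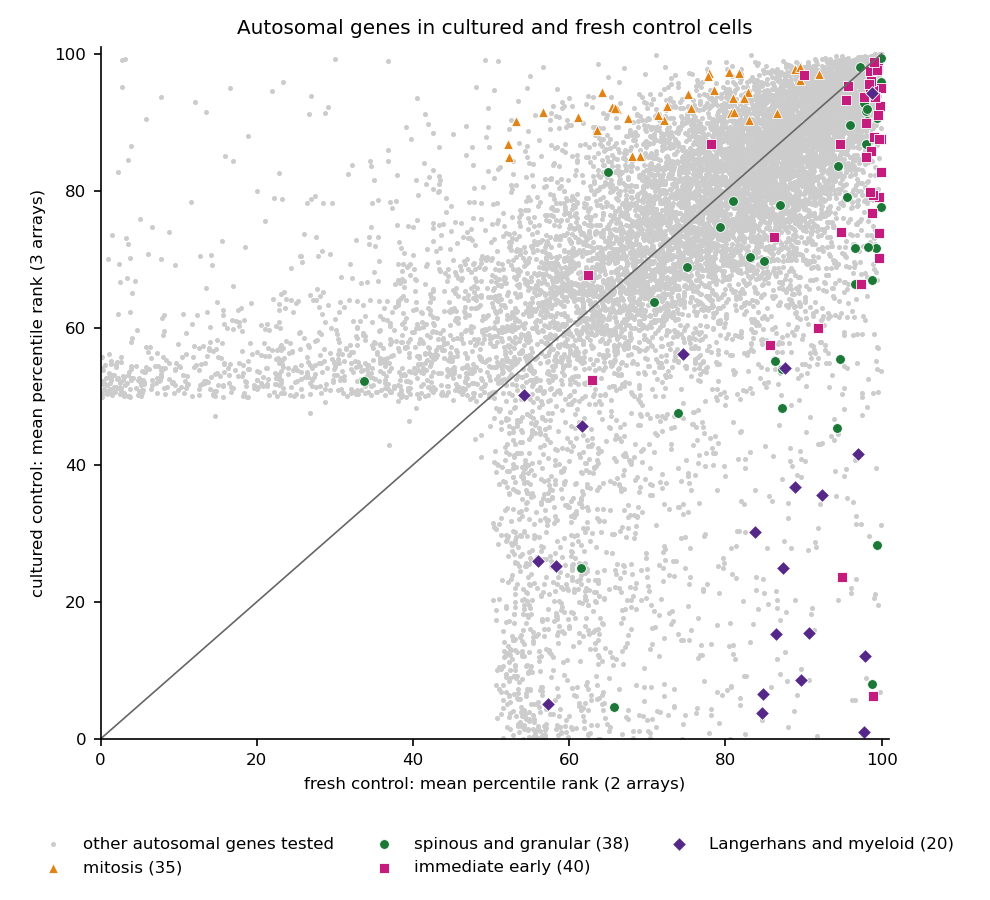
Mean percentile rank of each autosomal gene tested, on the 2 fresh control arrays (horizontal axis) and the 3 cultured control arrays (vertical axis), with 4 gene lists in colour and the diagonal marking equal rank. The 35 mitosis genes lie above the diagonal, and the 20 Langerhans and myeloid genes lie below it; the band of grey points at cultured ranks near 50 and the empty corner at the lower left follow from the filter, which kept probe sets above the 50th percentile on at least 2 of the 5 arrays.

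Both preparations carried basal keratinocyte RNA at the top of the range. Krt5, the type II keratin of the basal layer, lay at percentiles 99.8, 99.6 and 99.7 in culture and 99.9 and 99.8 in fresh cells. Its partner Krt14 lay at 99.8, 99.7 and 99.7 and at 99.9 and 99.9. Neither difference passed the test (adjusted p = 0.23 and 0.183), and on centred log2 signal both were above fresh cells. The label of a keratinocyte preparation was thus borne out by the defining markers on all 5 arrays.

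Genes that carry out mitosis were higher in culture in every case measured. All 35 members tested of the mitosis list passed as higher, 28 of them by at least 10 points (18.4% of all genes did), and the median difference was 17.04 points against -0.27 for all genes tested. The same 35 passed as higher on centred log2 signal. Mki67, the proliferation antigen Ki-67, lay at 97.2, 96.6 and 97.4 on the cultured arrays and 93.5 and 90.4 on the fresh arrays. Top2a, which untangles replicated chromosomes, lay at 96.7, 97.01 and 97.5 on the cultured arrays and 91.5 and 88.5 on the fresh arrays. Both were thus already bright in fresh cells, and they rose by 5.13 (SE 0.955, adjusted p = 0.00432) and 7.06 points (SE 0.923, adjusted p = 0.00104).

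Larger rises were found in genes that were only moderately bright in fresh cells. Ccnb2, a B-type cyclin that drives entry into mitosis, lay at 94.97, 94.2 and 95.1 on the cultured arrays and 80.5 and 76.6 on the fresh arrays, and it rose by 16.2 points (SE 1.20, adjusted p = 0.000106). Ccna2, the cyclin of S phase and early mitosis, stood at 95.04, 93.9 and 94.5 on the cultured arrays and 84.2 and 81.5 on the fresh arrays and rose by 11.6 points (SE 0.901, adjusted p = 0.000129). Aurkb, the kinase of the chromosomal passenger complex, was at 91.5, 91.01 and 91.9 on the cultured arrays and 60.4 and 52.9 on the fresh arrays. It rose by 34.8 points (SE 2.25, adjusted p = 6.44e-05). Ncapg, a subunit of the condensin complex that compacts chromosomes, rose by 37.1 points (SE 1.58, adjusted p = 1.36e-05) from fresh positions of 55.6 and 50.7 to 89.7, 90.3 and 90.7. Nuf2, which links kinetochores to microtubules, rose by 34.6 points (SE 1.70, adjusted p = 2.29e-05) from 54.9 and 49.6 to 86.2, 87.4 and 86.8. In all of these genes every cultured array lay above both fresh arrays.

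The DNA replication list moved in the same direction. Of 33 members tested, 32 passed as higher and 1 as lower, 21 rose by at least 10 points and none fell by as much, and the median difference was 12.6 points. The replicative helicase was represented by its MCM subunits. Mcm3 lay at 95.9, 95.5 and 95.6 on the cultured arrays and 74.5 and 73.5 on the fresh arrays and rose by 21.7 points (SE 0.445, adjusted p = 9.99e-07). Mcm2 rose by 16.6 points (SE 0.428, adjusted p = 2.2e-06), from 75.8 and 76.2 to 92.2, 92.8 and 92.8. Mcm5 and Mcm4 started higher, at fresh positions of 91.2 and 90.1 and of 90.8 and 90.2, and rose by 8.09 and 7.15 points (SE 0.355 and 0.261). Other members load or start this helicase. Cdc6, the loading factor, lay at 87.8, 90.3 and 90.04 on the cultured arrays and 59.3 and 59.9 on the fresh arrays and rose by 29.8 points (SE 0.996, adjusted p = 5.6e-06). Mcm10, needed to start the helicase, rose by 27.7 points (SE 0.941, adjusted p = 5.87e-06), from 52.4 and 53.9 to 81.5, 79.9 and 81.1. Ccne2, a cyclin of the G1 to S transition, rose by 25.3 points (SE 1.04, adjusted p = 1.19e-05), from 61.9 and 64.7 to 87.9, 88.96 and 89.1. The single member called lower was Gins2, another helicase subunit, at 75.3, 75.7 and 74.5 on the cultured arrays and 79.8 and 80.2 on the fresh arrays; its second probe set was called higher, so its direction is uncertain.

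Promoters of these cell cycle genes are shown because the 2 lists moved together and because their known control elements can be read in them. The CCAAT box and the TTTGAA element, whose pairing is known from promoters of genes active in G2 and mitosis, and the TTTNNCGC element bound by E2F factors, were looked for on both strands in the 250 bases before each RefSeq start (GRCm38.p6). A promoter was on hand for 31 of the 35 mitosis genes, for 28 of the 33 replication genes and for 9470 of all genes tested. CCAAT stood in 24 mitosis promoters (77.4%), in 15 replication promoters (53.6%) and in 39.7% of all. TTTGAA stood in 11 mitosis promoters (35.5%), in 3 replication promoters (10.7%) and in 12.6% of all. TTTNNCGC stood in 6 replication promoters (21.4%), in 2 mitosis promoters (6.45%) and in 8.15% of all. A match is a description of letters and not of a site in use. Capitals mark every match of these 3 motifs, with ATTGG as the other strand of CCAAT and GCGGGAAA as the other strand of a TTTNNCGC match. The Cdk1 window, of the kinase that partners the B cyclins, covers bases 1 to 238 before the start, and that of Ccnb2 bases 1 to 197. The Mcm5 window covers bases 1 to 183 and begins with TTTNNCGC matches on both strands that overlap. The Cdc6 window has 68 bases.
Cdk1, chr10:69352913-69353150, minus strand: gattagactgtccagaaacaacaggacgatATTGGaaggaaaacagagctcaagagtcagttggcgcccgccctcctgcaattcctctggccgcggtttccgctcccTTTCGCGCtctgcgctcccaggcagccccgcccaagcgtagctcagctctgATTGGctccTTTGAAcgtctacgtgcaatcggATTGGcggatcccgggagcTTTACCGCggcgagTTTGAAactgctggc
Ccnb2, chr9:70421555-70421751, minus strand: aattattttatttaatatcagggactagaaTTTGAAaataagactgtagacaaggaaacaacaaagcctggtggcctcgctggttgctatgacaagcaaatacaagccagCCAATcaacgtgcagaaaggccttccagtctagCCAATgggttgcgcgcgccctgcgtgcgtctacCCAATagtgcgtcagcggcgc
Mcm5, chr8:75109326-75109508, plus strand: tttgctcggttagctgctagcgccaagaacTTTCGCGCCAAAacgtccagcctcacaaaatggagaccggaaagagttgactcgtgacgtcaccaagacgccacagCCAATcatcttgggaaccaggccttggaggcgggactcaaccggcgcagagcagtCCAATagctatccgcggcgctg
Cdc6, chr11:98907983-98908050, plus strand: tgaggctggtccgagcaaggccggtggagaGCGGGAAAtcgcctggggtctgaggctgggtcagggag
Cdk1, printed for its promoter, itself lay at 97.2, 97.4 and 97.6 on the cultured arrays and 82.4 and 78.6 on the fresh arrays and rose by 16.9 points (SE 1.12, adjusted p = 7.11e-05).

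Genes of the differentiating layers were lower in culture. Of 38 spinous and granular genes tested, 33 passed as lower and 2 as higher, 21 fell by at least 10 points (21.1% of all genes did), and the median difference was -12.01 points. The list opens with keratins of the spinous layer. Krt1, the first keratin made above the basal layer, lay at 58.5, 10.1 and 16.4 on the cultured arrays and 99.5 and 99.4 on the fresh arrays. It fell by 71.1 points (SE 15.2, adjusted p = 0.00743), and the call was lost without fresh replicate 1 or 2 (adjusted p = 0.0611 and 0.0608). The cultured arrays did not agree on its position, since replicate 1 lay above the floor and the other 2 within it, so its size includes order there. Its partner Krt10 stayed measurable, at 78.7, 77.3 and 77.1 on the cultured arrays and 99.99 and 99.98 on the fresh arrays, and fell by 22.3 points (SE 0.601, adjusted p = 2.57e-06). Krt2, a keratin of the upper spinous layer, fell by 36.6 points (SE 0.837, adjusted p = 1.45e-06), from 60.9 and 62.2 to positions at the floor. Krt77, the keratin known in mouse epidermis beside keratin 1, is outside the list. It fell from 99.98 and 99.99 to the floor, at 31.4, 22.8 and 39.5, a difference of -68.8 points (SE 4.90) that includes order within the floor.

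Components of the cornified envelope and of granular cells fell with them. Lor (loricrin, the main envelope protein) lay at 68.8, 73.3 and 72.7 on the cultured arrays and 99.1 and 99.5 on the fresh arrays and fell by 27.7 points (SE 1.498, adjusted p = 3.25e-05), and its 2 further probe sets were called in the same direction. Hal, the histidase that turns histidine into urocanic acid in the granular layer, fell from 98.7 and 98.95 to 8.02, 8.06 and 8.10. Serpina12, a serine protease inhibitor, fell by 39.2 points (SE 0.944, adjusted p = 1.72e-06) from 93.6 and 95.7 to 55.1, 55.7 and 55.5. Notch3, a receptor of the pathway known to promote the switch to spinous cells, fell from 94.4 and 94.3 to positions at the floor. Its difference of -48.98 points (SE 4.14, adjusted p = 0.00018) includes order within the floor. Alox12e, an epidermal lipoxygenase outside the list, fell from 99.3 and 99.4 to 55.2, 55.1 and 55.1. The 2 members called higher were Lce3c and Rptn. Lce3c, a late cornified envelope gene, lay at 74.1, 89.4 and 84.6 on the cultured arrays and 64 and 65.8 on the fresh arrays and rose by 17.8 points (SE 4.59, adjusted p = 0.0151); that call was lost without fresh replicate 1 or 2 (adjusted p = 0.103 and 0.0817). Rptn lay near or below the 53rd percentile on all 5 arrays, and its difference is not read.

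**Figure D2:**
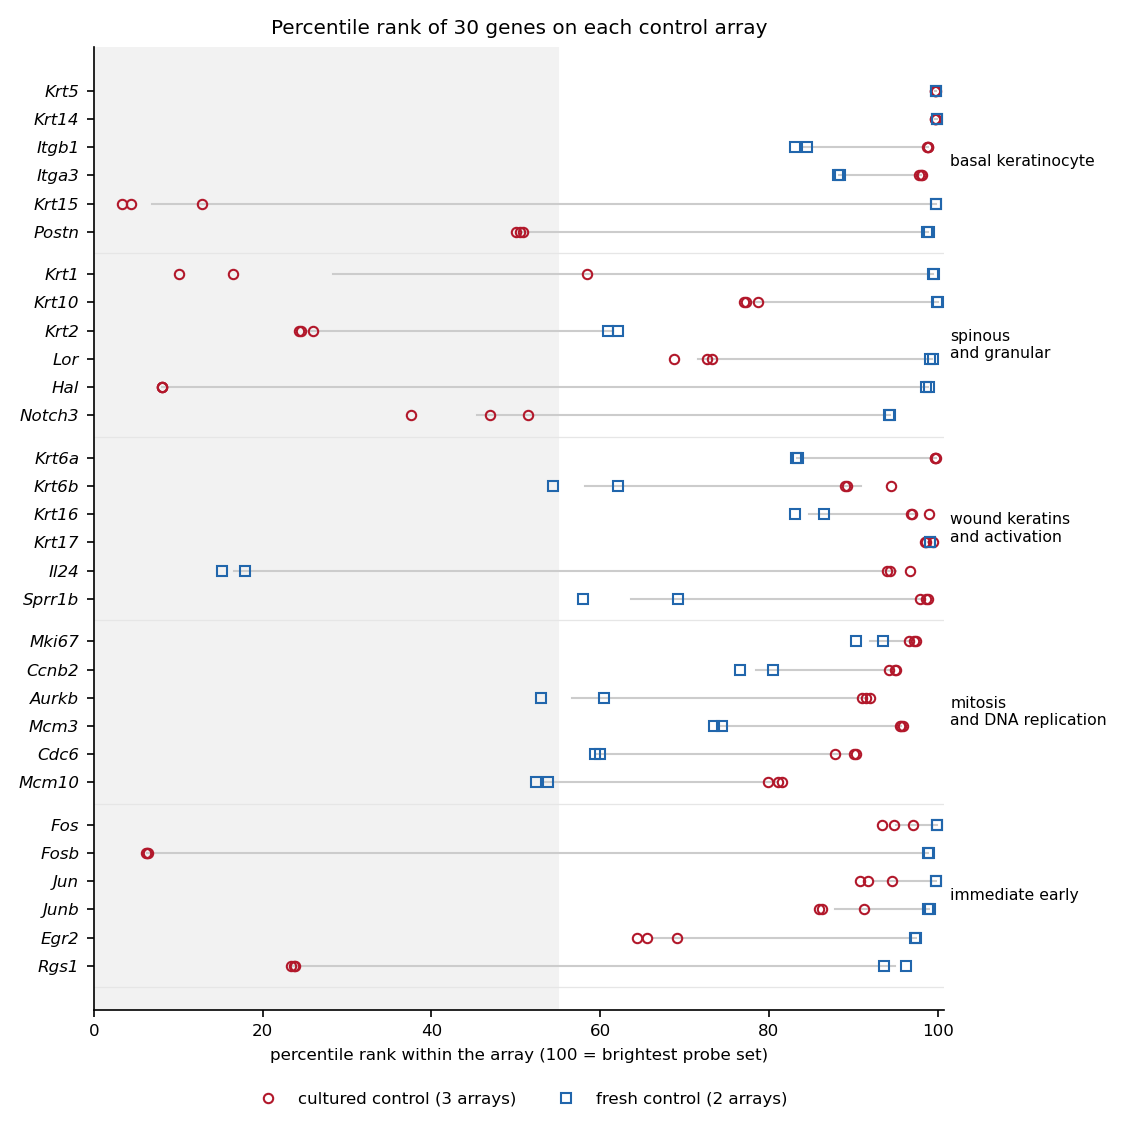
Percentile rank of 30 genes (rows) on each of the 3 cultured control arrays (red circles) and the 2 fresh control arrays (blue squares), in 5 groups by role, with a grey line between the group means; the shaded part below the 55th percentile is where cultured signals lie at a floor. Krt5 and Krt14 overlap at the top, the mitosis and replication genes lie to the right in culture, and Krt15, Krt1, Hal, Fosb and Rgs1 fall from above the 93rd percentile in fresh cells into or near the shaded part in culture.

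Genes of wounded and activated epidermis were mostly higher in culture. Of 28 wound and activation genes tested, 21 passed as higher and 4 as lower, and 19 rose by at least 10 points. The median difference of 22.1 points was the largest median rise of the 29 lists. Krt6a, induced in keratinocytes at wound edges, lay at 99.8, 99.7 and 99.7 on the cultured arrays and 83.2 and 83.4 on the fresh arrays and rose by 16.5 points (SE 0.199, adjusted p = 2.33e-07), with both further probe sets called in the same direction. Krt6b lay at 94.4, 89.2 and 89.1 on the cultured arrays and 62.1 and 54.4 on the fresh arrays and rose by 32.6 points (SE 2.89, adjusted p = 0.000218). Their partner Krt16 rose by 12.8 points (SE 1.21, adjusted p = 0.000281), from 86.5 and 83.1 to 98.97, 96.9 and 96.9. Krt17, also a keratin of the hair follicle, had overlapping groups by rank, with 99.4, 98.5 and 98.7 in culture and 99.1 and 99.1 in fresh cells (adjusted p = 0.556), but was higher in culture on centred log2 signal (1.59, adjusted p = 0.00121).

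Envelope precursors of the Sprr family are known to be induced in stressed epidermis. Of the 4 in the lists, Sprr1b, Sprr2d and Sprr2h passed as higher, and Sprr1a, at 97.01, 98.8 and 98.6 in culture and 97.6 and 96.9 in fresh cells, did not pass by rank (adjusted p = 0.218) but was higher on centred log2 signal (2.14, adjusted p = 0.00111) and without cultured replicate 1 (adjusted p = 0.00492). Sprr1b lay at 97.9, 98.7 and 98.9 on the cultured arrays and 69.3 and 57.99 on the fresh arrays and rose by 34.8 points (SE 3.30, adjusted p = 0.000286). Sprr2h rose by 49.8 points (SE 0.584, adjusted p = 2.24e-07), from 49.03 and 49.4 to 98.6, 99.2 and 99.3. Il24, a cytokine of the interleukin 10 family, lay at 96.8, 94.4 and 94.01 on the cultured arrays and 15.2 and 17.9 on the fresh arrays and rose by 78.5 points (SE 1.36, adjusted p = 5.68e-07). Tnc, the wound matrix glycoprotein tenascin C, rose by 24.2 points (SE 1.65, adjusted p = 7.74e-05). The gap junction genes Gjb6 and Gjb2 (connexins 30 and 26) rose by 22.8 (SE 1.23, adjusted p = 3.27e-05) and 18.7 points (SE 3.57, adjusted p = 0.00477). Without fresh replicate 2 the Gjb2 call was lost (adjusted p = 0.0519). The 4 members called lower included genes of matrix breakdown and of the provisional matrix. Plau (urokinase) fell by 29.98 points (SE 0.87, adjusted p = 3.33e-06), from 73.7 and 72.4 to the floor, a size that includes order within it. Mmp9, a gelatinase, fell by 10.95 points (SE 0.99981, adjusted p = 0.000245), and Fn1, fibronectin, fell by 11.9 points (SE 0.841, adjusted p = 8.88e-05), from 83.7 and 84.9 to 73.1, 72.4 and 71.4.

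Immediate early genes, which are transcribed within minutes of a stimulus without new protein synthesis, were lower in culture. Of 40 tested, 34 passed as lower and 2 as higher (43.2% and 40.7% of all genes). By at least 10 points 20 fell (21.1% of all genes did) and none rose, and the median difference was -9.53 points. Of these genes 26 were called lower and 6 higher on centred log2 signal. Fresh cells held AP-1 subunit transcripts at the very top of the array. Fos lay at 97.1, 94.8 and 93.4 on the cultured arrays and 99.9 and 99.9 on the fresh arrays, and Jun at 94.6, 91.7 and 90.8 on the cultured arrays and 99.8 and 99.8 on the fresh arrays. Jun fell by 7.45 points (SE 1.17, adjusted p = 0.0022). Fos fell by 4.86 points (SE 1.08, adjusted p = 0.00863), a call lost without fresh replicate 1 or 2 (adjusted p = 0.0665 and 0.0661). Fosb fell furthest, from 98.9 and 98.9 to 6.39, 6.19 and 6.30, where the cultured signal was at the floor. Junb, at 91.3, 86.3 and 85.9 on the cultured arrays and 99.1 and 98.9 on the fresh arrays, fell by 11.1 points (SE 1.75, adjusted p = 0.00221).

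Feedback regulators and further transcription factors are among the other members. Rgs1, a regulator of G protein signalling that is also abundant in lymphocytes, fell from 96.3 and 93.6 to 23.8, 23.7 and 23.3. Klf2 lay at 64.4, 58.4 and 57.2 on the cultured arrays and 93.3 and 90.3 on the fresh arrays and fell by 31.8 points (SE 2.48, adjusted p = 0.000133). Egr2, a zinc finger factor, lay at 69.2, 64.4 and 65.6 on the cultured arrays and 97.3 and 97.4 on the fresh arrays and fell by 30.99 points (SE 1.53, adjusted p = 2.34e-05). Btg2, an antiproliferative gene that p53 is also known to induce, fell by 25.9 points (SE 1.55, adjusted p = 4.81e-05), from 99.7 and 99.7 to 76.3, 73.9 and 71.1. Gadd45b fell by 8.03 points (SE 0.56, adjusted p = 8.57e-05), from 97.9 and 98.1 to 89.3, 89.6 and 90.99. The 2 members called higher were Gadd45a, a growth arrest and DNA damage gene that rose by 8.77 points (SE 1.24, adjusted p = 0.00146), and the neutrophil chemokine Cxcl1, which rose by 6.79 points (SE 0.811, adjusted p = 0.000721).

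Promoter windows of 3 immediate early genes are printed because their serum and cAMP response elements are the classical route to this response. TGACGTCA, the full cAMP response element, stood in 4 of the 33 immediate early promoters on hand (12.1%) and in 3.00% of all 9470. The CArG box, bound by serum response factor, stood in 2 (6.06%), those of Egr2 and Zfp36, and in 1.39% of all. TGANTCA, the AP-1 element, stood in 1 (3.03%) and in 5.83% of all. Both strands were searched, and the 3 motifs do not overlap in the windows shown. Capitals mark the matches. The Dusp1 window covers bases 106 to 173 before the start, that of Btg2 bases 129 to 196 and that of Egr2 bases 53 to 82.
Dusp1, chr17:26508578-26508645, minus strand: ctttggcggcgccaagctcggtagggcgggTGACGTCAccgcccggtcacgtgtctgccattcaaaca
Btg2, chr1:134079284-134079351, minus strand: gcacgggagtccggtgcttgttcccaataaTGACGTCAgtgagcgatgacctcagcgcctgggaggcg
Egr2, chr10:67537787-67537816, plus strand: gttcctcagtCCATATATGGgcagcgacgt
Dusp1, a phosphatase that ends MAP kinase signalling, lay at 93.2, 85.9 and 83.5 on the cultured arrays and 99.9 and 99.9 on the fresh arrays and fell by 12.4 points (SE 2.93, adjusted p = 0.011). That call was lost without fresh replicate 1 or 2 (adjusted p = 0.0778 and 0.077).

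Heat shock and chaperone genes did not move one way. Of 20 tested, 12 passed as higher and 8 as lower, only 1 in each direction by at least 10 points, and the median difference was 0.60 points. Hspa1a, an inducible Hsp70, fell by 14.8 points (SE 0.283, adjusted p = 7.92e-07), from 99.7 and 99.7 to 84.6, 84.9 and 85.1. Its near-identical copy Hspa1b lay at 98.2, 97.9 and 97.9 on the cultured arrays and 99.7 and 99.7 on the fresh arrays, and probes may not tell the pair apart. The Hsp70 cofactors Bag3 and Dnajb1 fell by 9.46 (SE 0.83) and fell by 5.79 points (SE 0.199), and Dnajb4 and Hsph1 fell by 6.01 and fell by 5.06 points. Hspb1 was at 99.5, 99.2 and 99.2 in culture and 99.97 and 99.97 in fresh cells. Among those called higher, Hspa4l, an Hsp70 relative, rose by 14.9 (SE 0.593) and Stip1, an Hsp90 cochaperone, rose by 6.78 points (SE 0.373). Cryab, a small heat shock protein, lay at 90.5, 91.6 and 92.2 on the cultured arrays and 79.1 and 87.9 on the fresh arrays; its call as higher (adjusted p = 0.035) was lost without any one of the 3 cultured arrays (adjusted p = 0.0547 to 0.0877).

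Basal layer genes did not shift as a group. Of 21 tested, 7 passed as higher and 8 as lower, with 1 and 3 of them past 10 points, and the median difference was -0.15 points; on centred log2 signal the split was 15 higher and 5 lower. The 7 called higher were the integrin subunits Itgb1, Itga3, Itgb4 and Itga6, the laminin chains Lama3 and Lamb3, and Cd44, a hyaluronan receptor. Itgb1, the shared beta 1 subunit, lay at 98.9, 98.9 and 98.7 on the cultured arrays and 84.5 and 83.1 on the fresh arrays and rose by 15.002 points (SE 0.461, adjusted p = 4.11e-06), with 4 of 4 further probe sets in the same direction. Its laminin-binding partner Itga3 rose by 9.73 points (SE 0.205, adjusted p = 1.1e-06), from 88.4 and 88.2 to 98.2, 97.8 and 98.1. Lama3, a chain of the laminin 332 that Itga3 binds, rose by 4.04 points (SE 0.396, adjusted p = 0.000326). Itgb4 and Itga6, the pair of the hemidesmosome, were bright in both, at 96.1, 95.2 and 95.9 and 99.4, 99.4 and 99.3 in culture and 94.6 and 94.2 and 98.2 and 98.2 in fresh cells. For Itgb4 the call as higher was lost without fresh replicate 2 (adjusted p = 0.0856), and the second probe set of Itga6 was called in the opposite direction.

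Other basal genes fell, 3 of them by more than 10 points. Krt15, a keratin of resting basal cells and of the hair follicle bulge, fell from 99.8 and 99.8 to 12.9, 4.39 and 3.35. Postn, the matrix protein periostin, fell from 98.99 and 98.7 to 50.8, 50.4 and 50.02. Col7a1, the collagen of anchoring fibrils, lay at 81.3, 72.6 and 74.4 on the cultured arrays and 95.2 and 93.2 on the fresh arrays and fell by 18.1 points (SE 2.74, adjusted p = 0.00189). The 27 hair follicle genes on the array, Krt15 among them, averaged percentile 32.6 to 33.2 in culture and 62.4 to 67.4 in fresh cells. The part of that shift in the falls of Krt15 and Postn was not tested.

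Genes of actin, adhesion and serum response factor rose by 10 points about as often as all genes. Of 32 tested, 17 passed as higher and 6 as lower, 6 rose by at least 10 points (18.4% of all genes did) and 1 fell by as much, and the median difference was 0.58 points; on centred log2 signal 27 were higher and 3 lower. Fscn1, the actin bundling protein fascin of migrating cells, lay at 99.9, 99.8 and 99.9 on the cultured arrays and 71.8 and 70.4 on the fresh arrays and rose by 28.8 points (SE 0.499, adjusted p = 5.76e-07), with 3 of 3 further probe sets in the same direction. Itgb6, the wound-induced integrin that activates latent TGF-beta, rose by 36.6 points (SE 2.67, adjusted p = 0.000101), from 47.6 and 39.04 to 80.9, 80.2 and 78.7. Acta2 (smooth muscle actin) rose by 12.9 points (SE 1.41, adjusted p = 0.000509), from 67.9 and 70.99 to 80.6, 82.6 and 83.7. Zyx, zyxin of focal adhesions, rose by 11.5 points (SE 1.31, adjusted p = 0.000589), though its second probe set was called lower. The main cytoplasmic actins were at the top in both conditions, Actb at 99.9, 99.9 and 99.9 in culture and 99.8 and 99.8 in fresh cells, and Actg1 at 99.9, 99.9 and 99.9 and 99.9 and 99.9. Tagln lay at 44.9, 55.3 and 57.4 on the cultured arrays and 50.2 and 51.1 on the fresh arrays, with overlapping groups. Itgb5, a vitronectin receptor subunit, fell by 17.4 points (SE 1.32, adjusted p = 0.000118). Cotl1 and Actn4, both actin-binding, fell by 4.47 and fell by 1.72 points by rank; on centred log2 signal Actn4 was higher in culture (0.57, adjusted p = 0.00297), and Cotl1 did not pass (adjusted p = 0.816). CArG boxes stood in 6 of the 27 promoters on hand (22.2%), among them those of Actg1 and Itgb6.

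Targets of YAP and TEAD, known to sense stiffness and spreading, split evenly. Of 22 tested, 7 passed as higher and 7 as lower, 5 and 3 by at least 10 points, with a median difference of -0.00 points; on centred log2 signal 13 were higher and 6 lower. Ccn2 and Ccn1, classical targets, were brighter in fresh cells by rank. Ccn2 lay at 85.2, 69.5 and 72.3 on the cultured arrays and 97.1 and 97.2 on the fresh arrays and fell by 21.5 points (SE 4.85, adjusted p = 0.00906). Ccn1 lay at 96.2, 92.9 and 91.9 on the cultured arrays and 99.1 and 99.1 on the fresh arrays and fell by 5.47 points (SE 1.32, adjusted p = 0.0115). Both calls were lost without fresh replicate 1 or 2 (adjusted p = 0.0685 and 0.0693 for Ccn2, 0.0791 and 0.0795 for Ccn1). Ptpn14, a phosphatase that restrains YAP, fell by 13.9 points (SE 0.702, adjusted p = 2.54e-05), Tgfb2 fell by 15.7 points (SE 0.71, adjusted p = 1.68e-05) and Amotl2, an angiomotin, fell by 6.74 points (SE 0.689, adjusted p = 0.000387). Ajuba was at 98.2, 97.6 and 98.02 on the cultured arrays and 97.6 and 97.6 on the fresh arrays, with overlapping groups. Myof (myoferlin), Fjx1 and Rbms3 rose by 22.6 (SE 2.05), 19.7 (SE 0.79) and 16.1 points (SE 0.805).

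Matrix and TGF-beta genes moved both ways. Of 31 tested, 11 passed as higher and 16 as lower (40.7% and 43.2% of all genes). At least 10 points were reached by 8 upwards and 9 downwards (18.4% and 21.1% of all genes). The median difference was -4.25 points. Adam12, a membrane metalloprotease, lay at 86.9, 87.4 and 88.2 on the cultured arrays and 35.7 and 43.8 on the fresh arrays and rose by 47.8 points (SE 2.48, adjusted p = 2.81e-05). Lamb1, a laminin chain, rose by 31.9 points (SE 3.59, adjusted p = 0.000562), from 49.8 and 59.4 to 82.2, 88.6 and 88.7. Tgfb1 rose by 22.8 points (SE 0.791, adjusted p = 6.41e-06), while its second probe set was called lower. Tgfbr1, its receptor, lay at 88.8, 84.3 and 87.3 on the cultured arrays and 87.1 and 86.8 on the fresh arrays, with overlapping groups and both further probe sets called higher. Mmp2, a gelatinase best known from fibroblasts, fell from 79.3 and 76.6 to 44.04, 43.6 and 43.95. Sparc and Timp3, a matricellular protein and a protease inhibitor, fell by 27.2 (SE 3.94, adjusted p = 0.00158) and fell by 24.9 points (SE 4.73, adjusted p = 0.00472). Tgfbi lay at 92.9, 81.6 and 83.2 on the cultured arrays and 98.98 and 99.2 on the fresh arrays and fell by 13.2 points (SE 3.53, adjusted p = 0.0171); the call was lost without fresh replicate 1 or 2 (adjusted p = 0.0992 and 0.103). The 20 fibroblast markers on the array averaged percentile 36.2 to 36.9 in culture and 51.9 to 53.1 in fresh cells, 14 of them below the 55th percentile on all cultured arrays and 12 on both fresh arrays, and their part in the falls was not tested.

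**Figure D3:**
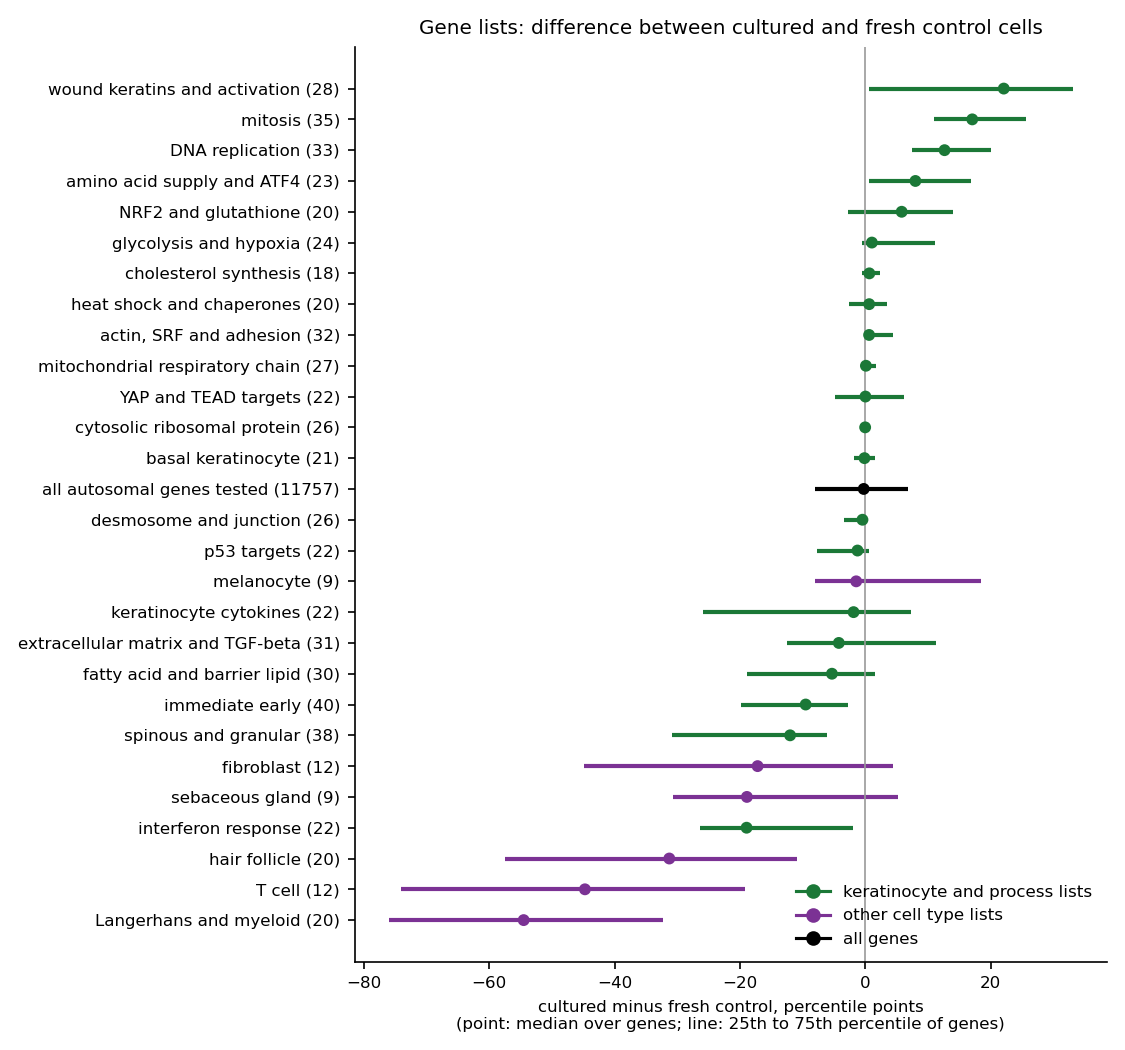
Difference in percentile rank, cultured minus fresh control cells, for the 27 gene lists with at least 5 genes tested and for all 11757 autosomal genes tested; points are medians over the tested genes of a list (number in brackets) and lines run from the 25th to the 75th percentile of those genes, a spread over genes and not an error. Wound, mitosis and replication genes lie to the right of all genes, and the Langerhans, T cell and hair follicle lists lie farthest to the left.

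Amino acid transport and synthesis genes, many of them targets of the stress factor ATF4, were mostly higher in culture. Of 23 tested, 16 passed as higher and 4 as lower, 10 and 1 of them by at least 10 points, and the median difference was 7.97 points. Slc7a11, the cystine importer, lay at 78.1, 79.1 and 77.7 on the cultured arrays and 24.9 and 27.97 on the fresh arrays and rose by 51.8 points (SE 1.20, adjusted p = 1.5e-06). Mthfd2, of mitochondrial one-carbon metabolism, lay at 93.3, 93.9 and 94.2 on the cultured arrays and 62.2 and 62.7 on the fresh arrays and rose by 31.4 points (SE 0.577, adjusted p = 6.87e-07). Slc7a5 and Slc3a2 form a leucine importer, and they rose by 19.5 (SE 0.481, from 78.1 and 77.3 to 97.8, 96.7 and 97.2) and 1.24 points (SE 0.259). The glutamine importer Slc1a5 rose by 27.9 points (SE 0.938, adjusted p = 5.66e-06), although the mean over all its probe sets was lower in culture. Aldh18a1, of proline synthesis, rose by 22.7 points (SE 0.946, adjusted p = 1.24e-05), and Trib3, a pseudokinase induced by ATF4, rose by 17.9 points (SE 1.03, adjusted p = 4.17e-05). Cth, the enzyme that makes cysteine from cystathionine, is outside the list. It lay at 98.99, 99.01 and 98.8 on the cultured arrays and 50.9 and 50.95 on the fresh arrays and was among the 12 largest rises of the whole table. The 4 members called lower were Ddit3, Sesn2, Cebpg and Atf4 itself. Ddit3 (CHOP) fell by 14.1 points (SE 1.33, adjusted p = 0.000277), from 89.3 and 90.1 to 73.4, 77.6 and 75.8, and Sesn2 fell by 7.80 points (SE 1.59, adjusted p = 0.00623). The Sesn2 call was lost without fresh replicate 1 (adjusted p = 0.0525). Atf4 fell by 1.08 points by rank (SE 0.224, adjusted p = 0.00646) but was higher in culture on centred log2 signal (0.79, adjusted p = 0.00192), so its direction is uncertain. Cebpg lay at 87.2, 89.6 and 89.9 on the cultured arrays and 90.97 and 91.8 on the fresh arrays, with a call (adjusted p = 0.0491) lost in 3 of the 5 fits that left out 1 array.

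Glutathione and NRF2 genes moved both ways. Of 20 tested, 13 passed as higher and 6 as lower (40.7% and 43.2% of all genes). Differences of at least 10 points were found for 8 upwards and 3 downwards (18.4% and 21.1% of all genes). The median difference was 5.78 points. Gsta4, a glutathione transferase for lipid aldehydes, lay at 97.3, 98.5 and 98.5 on the cultured arrays and 56.1 and 57.2 on the fresh arrays and rose by 41.4 points (SE 0.704, adjusted p = 5.38e-07). Srxn1 and Nqo1, classical NRF2 targets, rose by 32.03 (SE 1.32, from 60.4 and 57.05 to 91.9, 89.5 and 90.8) and 23.97 points (SE 1.97, from 63.1 and 61.9 to 82.8, 87.8 and 88.8). Gclc and Gclm, the subunits of the enzyme that limits glutathione synthesis, rose by 12.1 (SE 0.595) and 9.90 points (SE 0.755). Hmox1, heme oxygenase, rose by 11.96 points (SE 1.32, adjusted p = 0.000526). Other detoxifying enzymes fell. Gsta2 fell by 35.1 points (SE 2.10, adjusted p = 4.78e-05), from 90.9 and 91.98 to 52.4, 58.3 and 58.2. Gstm1 fell by 24.1 points (SE 0.865, adjusted p = 7.18e-06), with 3 of 3 further probe sets in the same direction, and Aldh3a1 fell by 23.96 points (SE 1.54, adjusted p = 6.18e-05).

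Glycolysis and hypoxia genes shifted slightly upwards. Of 24 tested, 14 passed as higher and 5 as lower (40.7% and 43.2% of all genes). Past 10 points 7 rose and 1 fell (18.4% and 21.1% of all genes), with a median difference of 1.03 points. Slc16a3, the lactate exporter, lay at 75.8, 83.2 and 74.1 on the cultured arrays and 44.8 and 44.9 on the fresh arrays and rose by 32.9 points (SE 2.87, adjusted p = 0.000205). Hk2 (hexokinase 2), Pfkfb3, which makes the activator of phosphofructokinase, and P4ha2, a prolyl hydroxylase of collagen, rose by 12.1 (SE 0.91), 14.7 (SE 1.31) and 14.9 points (SE 1.40). Pfkl rose by 13.6 points (SE 0.742, adjusted p = 3.37e-05), with its 2 further probe sets called in opposite directions. The glucose importer Slc2a1 was at 99.5, 99.4 and 99.2 in culture and 98.3 and 98.4 in fresh cells. Aldoc, a brain-type aldolase, fell by 18.9 points (SE 1.34, adjusted p = 9.25e-05). Egln3, Pfkp and Ndrg1 were called lower by -9.25, -2.62 and -2.46 points; leaving out 1 fresh array ended each call (highest adjusted p = 0.107, 0.0647 and 0.0527), and on centred log2 signal Pfkp was higher in culture (adjusted p = 0.0141), while Ndrg1 did not pass (adjusted p = 0.0554).

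Cholesterol synthesis genes had no steady direction. Of 18 tested, 8 passed as higher and 4 as lower, 2 and 1 by at least 10 points, with a median difference of 0.62 points; on quantile normalized log2 signal 7 were higher and 6 lower. Lss, which closes the sterol rings, rose by 16.7 points (SE 0.704, adjusted p = 1.29e-05), from 77.8 and 78.3 to 93.5, 95.4 and 95.4, and Mvd rose by 11.9 points (SE 1.38, adjusted p = 0.000633). Idi1 rose by 3.84 points (SE 0.261, adjusted p = 7.82e-05) and Sc5d rose by 2.35 points (SE 0.585, adjusted p = 0.0131), the latter with a second probe set called lower and a call lost without fresh replicate 2 (adjusted p = 0.0922). Mvk fell by 9.05 points (SE 0.907, adjusted p = 0.000356), Tm7sf2 fell by 13.3 points (SE 0.785, adjusted p = 4.51e-05) and Insig1, a brake on sterol synthesis, fell by 4.75 points (SE 0.28, adjusted p = 4.51e-05). Hmgcs1 lay at 99.1, 99.2 and 99.3 on the cultured arrays and 99.4 and 99.4 on the fresh arrays and Pmvk at 86.9, 88.9 and 89.5 on the cultured arrays and 91.04 and 91.7 on the fresh arrays, without a steady direction across scales.

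Genes of fatty acids and barrier lipids were lower more often than higher. Of 30 tested, 20 passed as lower and 10 as higher (43.2% and 40.7% of all genes). Falls of at least 10 points numbered 12 and such rises 3 (21.1% and 18.4% of all genes). The median difference was -5.34 points. Fa2h, which hydroxylates the fatty acids of epidermal ceramides and sebum, fell from 85.3 and 84.3 to the floor, at 23.4, 22.97 and 23.7. Sptlc3, a subunit of the enzyme that starts ceramide synthesis, lay at 69.2, 68.04 and 69.4 on the cultured arrays and 96.6 and 96.4 on the fresh arrays and fell by 27.6 points (SE 0.669, adjusted p = 1.76e-06). Dgat2, a triglyceride synthase, fell by 30.7 points (SE 0.669, adjusted p = 1.22e-06), from 98.1 and 98.1 to 67.7, 67.9 and 66.5. Far2 and Elovl3, of wax and very long chain lipid synthesis, fell from 67.4 and 65.3 and from 67.1 and 67.1 to the floor. Scd1, the main desaturase of sebaceous cells, fell by 5.76 points (SE 0.353, adjusted p = 5.23e-05), and Scd3 fell by 19.2 points (SE 1.57) to 55.5, 51.8 and 52.1. The 13 sebaceous gland genes on the array, Far2, Elovl3 and Scd3 among them, averaged percentile 40.01 to 40.6 in culture and 51.5 to 54.4 in fresh cells. The part of sebaceous cells in these falls was not tested.

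The desaturase genes Fads3 and Fads2 rose instead, while the direction of Fads1 depended on the choice of probe sets. Fads3 is outside the list. Fads3 lay at 96.3, 97.2 and 96.96 on the cultured arrays and 57.1 and 52.7 on the fresh arrays and rose by 41.9 points (SE 1.39, adjusted p = 5.41e-06), with both further probe sets in the same direction. Fads2 rose by 25.8 points (SE 1.48, adjusted p = 4.09e-05), from 45.6 and 48.9 to 74.7, 71.6 and 72.8. Fads1 rose by 14.6 points (SE 1.76, adjusted p = 0.000747), but the mean over all its probe sets was lower in culture. Degs2, which makes phytoceramides, lay at 57.2, 71.5 and 70.7 on the cultured arrays and 36.04 and 40.6 on the fresh arrays and rose by 28.2 points (SE 4.87, adjusted p = 0.00322). The de novo synthesis genes Fasn, Acaca and Acly lay at 94.1, 83.999 and 96.6 on average in culture and 95.6, 88.9 and 98.4 in fresh cells, and the direction of each turned with the scale or the choice of probe sets.

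Housekeeping complexes stayed at the top of both conditions. Of 27 respiratory chain genes tested, 12 passed as higher and 10 as lower, none by 10 points, with a median difference of 0.08 points; on centred log2 signal all 27 were called higher. Sdhc and Sdhd, membrane subunits of complex II, rose by 9.24 (SE 0.806) and 5.70 points (SE 0.491), and Uqcrfs1 and Ndufs1 rose by 2.33 and 2.26 points. Ndufa9 lay at 96.7 on average in culture and 95.7 in fresh cells, Ndufa4 at 97.9 and 98.9, and Ndufb8 at 96.97 and 98.4. Ndufs3, Uqcrc1 and Cox6c averaged 94.6, 96.4 and 97.9 in culture and 96.1, 98.3 and 99.2 in fresh cells. Of 26 cytosolic ribosomal protein genes tested, 4 passed as higher, 5 as lower and 17 in neither direction, with a median of -0.05 points, while 24 were higher on centred log2 signal. Rplp0, Rpl4, Rpl7 and Rpl8 all lay above the 99th percentile on every array and did not pass (adjusted p = 0.487, 0.169, 0.0875 and 0.788). Single members stood apart: Rps27 fell by 22.8 points (SE 0.628, adjusted p = 2.78e-06), and Rps2, Rpl37 and Rpl14 rose by 5.52, 5.22 and 3.47 points. Rpsa and the elongation factor gene Eef2 averaged 99.6 and 98.8 in culture and 99.9 and 99.5 in fresh cells.

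Targets of p53 and inhibitors of cell cycle kinases, taken as 1 list, moved both ways. Of 22 tested, 11 passed as lower and 5 as higher, 4 fell by at least 10 points (21.1% of all genes did) and 1 rose by as much, with a median difference of -1.26 points and an even split of 8 and 8 on centred log2 signal. Cdkn1a, the cell cycle inhibitor p21, lay at 96.3, 95.9 and 96.5 on the cultured arrays and 99.2 and 98.998 on the fresh arrays and fell by 2.86 points (SE 0.232, adjusted p = 0.000153). Sesn1 and Cdkn2b, the latter an inhibitor of the G1 cyclin kinases, fell by 20.4 (SE 0.693) and fell by 22.1 points (SE 1.61). Bbc3 (Puma) fell by 11.7 points (SE 0.831, adjusted p = 9.2e-05). Tnfrsf10b, a TRAIL receptor, rose by 31.8 points (SE 2.01, adjusted p = 5.87e-05), from 33.5 and 27.5 to 62.4, 63.6 and 60.8, and Ccng1 and Aen rose by 7.90 (SE 0.838) and 8.76 points (SE 1.41). Mdm2, the ligase that degrades p53, lay at 79.8, 80.8 and 81.4 on the cultured arrays and 84.7 and 82.96 on the fresh arrays; its call (adjusted p = 0.0156) was lost without fresh replicate 1 (adjusted p = 0.0865), and its second probe set was called higher. Plk2 lay at 98.2, 97.2 and 97.1 on the cultured arrays and 96.3 and 96.1 on the fresh arrays, with a call lost without fresh replicate 1 or 2 (adjusted p = 0.0895 and 0.117).

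Interferon response genes and the peptide loading machinery were lower in culture. Of 22 tested, 17 passed as lower and 3 as higher, 13 and 3 of them by at least 10 points, and the median difference was -18.96 points. Irf1, the interferon-gamma response factor, lay at 67.1, 70.7 and 71.1 on the cultured arrays and 96.6 and 96.2 on the fresh arrays and fell by 26.8 points (SE 1.37, adjusted p = 2.62e-05). Irf7 fell from 64.2 and 62.7 to the floor, at 9.95, 9.61 and 8.10. Irf9, the DNA-binding part of the interferon complex ISGF3, fell by 23.99 points (SE 0.903, adjusted p = 8.62e-06), from 84.5 and 86.1 to 62.01, 60.9 and 61.04. Psmb8 and Psmb9, subunits of the immunoproteasome, fell from 93.8 and 92.4 to 62.6, 62.6 and 61.4 and from 94.3 and 92.7 to 47.98, 41.7 and 42.99, and the peptide transporter Tap1 fell by 25.1 points (SE 1.47, adjusted p = 4.42e-05). The 3 members called higher, Stat2, Ifit3 and Gbp3, lay below percentile 64 on all 5 arrays and are not read as rises; on centred log2 signal Ifit3 and Gbp3 were lower in culture and Stat2 did not pass (adjusted p = 0.405). Markers of antigen presenting cells and T cells, given below, moved with this list, and their part in it was not tested.

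Among 22 keratinocyte cytokine genes, 8 passed as higher and 11 as lower (40.7% and 43.2% of all genes). Rises of at least 10 points numbered 5 and such falls 8 (18.4% and 21.1% of all genes). The median difference was -1.90 points. Cxcl5 and Cxcl3, the latter outside the list, attract neutrophils and were far higher in culture, and Cxcl1 rose as given above. Cxcl2, of the same kind, lay at 63.8, 68.7 and 70.5 in culture and 63.8 and 60.9 in fresh cells and did not pass (adjusted p = 0.0782) unless cultured replicate 1 was left out (adjusted p = 0.00842). Cxcl3 lay at 98.6, 99.6 and 99.6 on the cultured arrays and 3.76 and 2.47 on the fresh arrays and rose by 96.1 points (SE 0.85, adjusted p = 2e-07). Its fresh positions lay at the floor of the fresh arrays, so the size of this rise depends on order there. Cxcl5 lay at 87.6, 94.3 and 97.2 on the cultured arrays and 13.9 and 10.2 on the fresh arrays and rose by 80.9 points (SE 3.14, adjusted p = 9.55e-06). Il1a, the preformed alarm cytokine of keratinocytes, lay at 82.6, 85.4 and 85.2 on the cultured arrays and 32.9 and 36.1 on the fresh arrays and rose by 49.9 points (SE 1.47, adjusted p = 3.49e-06). Tslp, an epithelial cytokine that acts on dendritic cells, rose by 26.3 points (SE 3.32, adjusted p = 0.000898), from 65.5 and 65.3 to 97.7, 86.4 and 90.98. Il1f9, an older symbol of interleukin 36 gamma, rose by 16.8 points (SE 2.66, adjusted p = 0.00229), from 65.9 and 66.5 to 77.8, 85.6 and 85.6. Other ligands went down. Il18 fell from 88.96 and 91.5 to 44.8, 33.1 and 43.9, and the interleukin 1 receptor antagonist Il1rn fell by 18.6 points (SE 1.46, adjusted p = 0.000136). Ccl20, which attracts Langerhans cell precursors, fell from 72.1 and 69.1 to 2.72, 3.46 and 2.49. Cxcl12, Ccl2 and Il1b fell from 85.7 and 87.6, from 70.9 and 62.9 and from 70.6 and 68.5 to or near the floor.

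Desmosome and junction genes differed little. Of 26 tested, 5 passed as higher and 15 as lower, 4 and 2 of them by at least 10 points, with a median difference of -0.47 points; on centred log2 signal 13 were higher and 6 lower, so the list has no steady direction. Gjb5 (connexin 31.1) fell by 12.96 points (SE 0.346, adjusted p = 2.48e-06) and Nectin4 fell by 25.1 points (SE 0.806, adjusted p = 4.84e-06). Cldn4, a tight junction claudin, fell by 9.08 points (SE 0.589, adjusted p = 6.49e-05), and Dsg2, a desmosomal cadherin, fell by 5.75 points (SE 0.548, adjusted p = 0.000291). Pkp2, a desmosomal plaque protein, rose by 31.4 points (SE 2.58, adjusted p = 0.000162), from 35.05 and 35.9 to 61.9, 68.6 and 69.9, with 2 of 2 further probe sets in the same direction. Dsp, Dsc3 and Dsc2 lay at 99.2, 98.8 and 86.4 on average in culture and 99.8, 99.4 and 89.8 in fresh cells, with probe sets called in both directions for each.

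Markers of other cells were mostly lower in culture, often down to the floor. In bulk samples such as these, fewer cells of a type and less RNA per cell cannot be told apart. All 20 Langerhans and myeloid genes tested passed as lower, 18 by at least 10 points, with a median difference of -54.5 points. The size of this median includes order within the cultured floor, as in the T cell and hair follicle lists below. The filter could be met by the 2 fresh arrays alone. Members below the 50th percentile on all cultured arrays were tested only if above it on both fresh arrays. Their direction was thus fixed by the filter in all 3 lists. The same holds for such members of every other list. Averages over all members on the array do not depend on the filter. The 23 genes on the array averaged percentile 30.2 in culture and 73.9 to 75.8 in fresh cells, and 21 of the 23 were below the 55th percentile on all cultured arrays. Cd207 (langerin, the defining protein of Langerhans cells) lay at 14.7, 17.04 and 14.5 on the cultured arrays and 92.4 and 89.02 on the fresh arrays. Cd74, the invariant chain of class II molecules, lay at 1.04, 1.04 and 1.04 on the cultured arrays and 98.1 and 97.3 on the fresh arrays. The class II genes H2-Eb1, H2-Aa and H2-Ab1 fell from 98.2 and 97.6, from 92.1 and 92.6 and from 97.5 and 96.5 to the floor. Ptprc (CD45, on all leukocytes) and Ctss fell from 91.1 and 88.3 and from 90.6 and 87.2 to the floor as well. For each of these 7 genes the fresh arrays were bright and the cultured arrays gave floor signals.

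Resident T cell genes showed the same pattern with an exception. Of 12 tested, 10 passed as lower, each by at least 10 points, with a list median of -44.7 points; the 14 genes on the array averaged 30.2 to 30.8 in culture and 64.8 to 68.2 in fresh cells, and 11 were below the 55th percentile on all cultured arrays. Cd3g, of the T cell receptor complex, lay at 15.8, 16.2 and 15.6 on the cultured arrays and 93.1 and 89.5 on the fresh arrays, and Cd3d at 24.2, 24.3 and 23.9 on the cultured arrays and 82.8 and 78.8 on the fresh arrays. Thy1, Cd7, Nkg7 and Xcl1 fell from 90.5 and 82.7, from 84.8 and 78.97, from 79.6 and 76.7 and from 83.9 and 82.2 to the floor. The probe set named Cd3e went against its partners, with 95.8, 95.9 and 95.8 in culture and 77.95 and 75.98 in fresh cells (18.9 points higher, SE 0.641, adjusted p = 5.86e-06). No second probe set was tested, and whether its signal is that of Cd3e was not known here, so it is not read as a rise of the gene. Cd8a, the other member called higher, lay at 56.3, 56.4 and 56.1 on the cultured arrays and 41.7 and 47.8 on the fresh arrays, close to the floor, and was lower in culture on centred log2 signal.

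Hair follicle genes were lower too. Of 20 tested, 16 passed as lower and 1 (Dcn, described with the fibroblast genes) as higher, 14 of the former by at least 10 points, with a median difference of -31.3 points, and 21 of the 27 on the array were below the 55th percentile on all cultured arrays. Krt79, a keratin of the upper follicle and its opening, fell from 99.6 and 99.5 to 20.03, 19.7 and 19.03. Lgr6, a receptor of follicle isthmus stem cells, fell from 94.1 and 93.9 to 37.6, 41.98 and 37.7. Krt71 and Krt31, keratins of the inner root sheath and the hair shaft, fell from 62.4 and 58.4 and from 61.1 and 54.2 to the floor, and the fresh arrays were themselves only slightly above their own median. Krt25, at 50.4, 50.4 and 50.1 on the cultured arrays and 73.2 and 53.1 on the fresh arrays, and Tchh, at 72.1, 74.97 and 73.6 on the cultured arrays and 72.7 and 58.3 on the fresh arrays, did not pass (adjusted p = 0.0907 and 0.133), and in both genes the 2 fresh arrays lay far apart, replicate 1 being higher.

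Sebaceous, melanocyte and stromal markers gave mixed values. Of 9 sebaceous genes tested 6 passed as lower and 2 as higher (43.2% and 40.7% of all genes). Mgst1 fell by 15.2 points (SE 0.968, adjusted p = 6.01e-05), with a second probe set called higher, and Cidea, a lipid droplet protein, fell from 75.2 and 71.2 to 49.7, 56.9 and 56.2. Mogat2 fell from 52.3 and 53.8 to the floor. The 2 called higher, Fabp4 and Plin5, lay below the 56th percentile on all 5 arrays and are not read. The 9 melanocyte genes tested split into 4 higher and 4 lower, and the 12 on the array averaged 51.01 to 53.2 in culture and 46.9 to 49.1 in fresh cells. Tyrp1, a melanin enzyme, lay at 66.4, 72.3 and 69.1 on the cultured arrays and 49.2 and 34.3 on the fresh arrays and rose by 27.5 points (SE 4.71, adjusted p = 0.00309), while Mitf, the master factor of melanocytes, fell by 15.8 points (SE 1.28, adjusted p = 0.000155) and Sox10 fell from 56.8 and 60.2 to the floor. Dct was at 64.2, 68.1 and 64.6 on the cultured arrays and 73.3 and 69.2 on the fresh arrays, Pmel at 62.04, 66.4 and 59.2 on the cultured arrays and 64.7 and 63.3 on the fresh arrays, Gpnmb at 65.2, 60.7 and 58.7 on the cultured arrays and 69.7 and 69.4 on the fresh arrays and Mlana at 46.4, 56.97 and 55.3 on the cultured arrays and 39.9 and 29.1 on the fresh arrays. Pmel did not pass (adjusted p = 0.565), and the calls of Dct, Gpnmb and Mlana were lost without fresh replicate 1, 1 and 2 (adjusted p = 0.178, 0.0856 and 0.0896). Tyr and Slc45a2 lay below the 53rd percentile on all 5 arrays and are not read. Of the 12 melanocyte genes on the array 6 were below the 55th percentile on all cultured arrays and 7 on both fresh arrays.

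Of 12 fibroblast genes tested, 8 passed as lower and 3 as higher (43.2% and 40.7% of all genes). Vim, the intermediate filament of mesenchymal cells and leukocytes, lay at 59.5, 64.2 and 61.3 on the cultured arrays and 93.7 and 92.9 on the fresh arrays and fell by 31.7 points (SE 1.55, adjusted p = 2.22e-05). Col6a1 fell from 82.7 and 79.4 to 13.7, 13.6 and 13.8, and Col1a2 from 58.2 and 61.4 to 21.3, 22.8 and 20.9. Pdgfrb, a receptor of stromal cells, lay at 33.4, 34.1 and 32.8 on the cultured arrays and 51.3 and 52.3 on the fresh arrays. Col6a1, Col1a2 and Pdgfrb met the filter on the fresh arrays alone, so the filter fixed their direction. The 3 called higher, Dcn, Pdgfra and Fbln2, lay below the 61st percentile on all 5 arrays, were lower on centred log2 signal and are not read. Endothelial, blood and muscle genes were rarely above the filter in either condition. The 2 endothelial genes tested were Egfl7, at 65.7, 66.3 and 64.2 on the cultured arrays and 57.2 and 60.9 on the fresh arrays, and Eng, at 62.99, 63.04 and 62.9 on the cultured arrays and 61.05 and 62.4 on the fresh arrays, and the 4 of blood and muscle were Hba-a2, Acta1, Myh4 and Mylpf, none above percentile 65 on any array.

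**Figure D4:**
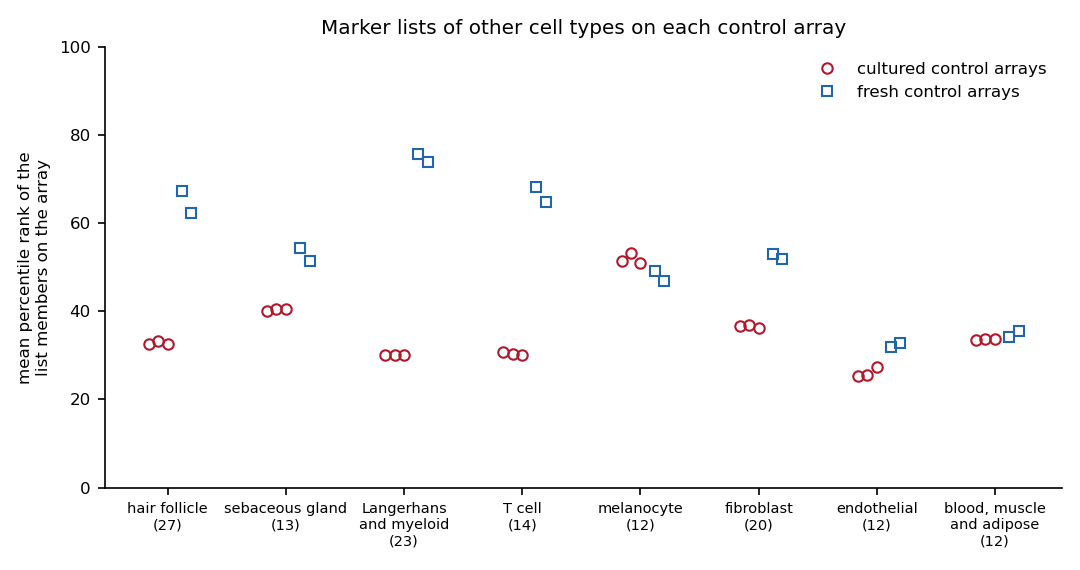
Mean percentile rank of all members on the array of 8 marker lists of other cell types (number of genes in brackets), with 1 point for each cultured control array (red circles) and each fresh control array (blue squares). The Langerhans and myeloid list stands at about 30 in culture and 74 to 76 in fresh cells, the T cell and hair follicle lists show gaps of similar kind, and the melanocyte, endothelial and blood, muscle and adipose lists differ little.

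The largest differences of the whole table, taken over genes whose arrays did not overlap and with positions below 55 set to 55, include several outside these lists. Among the 12 largest rises, Anxa3, an annexin, lay at 99.2, 99.3 and 99.5 on the cultured arrays and 22.9 and 37.2 on the fresh arrays. Procr, the endothelial protein C receptor that is also known from basal and stem-like epithelial cells, lay at 98.4, 99.1 and 99.4 on the cultured arrays and 39.96 and 33.7 on the fresh arrays. Kcnk1, a potassium channel, lay at 96.4, 95.6 and 95.8 on the cultured arrays and 19.6 and 27.2 on the fresh arrays, and Basp1, a membrane protein of growing processes, at 95.3, 94.4 and 95.9 on the cultured arrays and 49.9 and 46.3 on the fresh arrays. Both remaining genes of this group have names from other tissues. Mir124-2hg, the host gene of a neuronal microRNA, lay at 99.2, 99.1 and 99.1 on the cultured arrays and 3.24 and 2.27 on the fresh arrays, and Prl8a9, a placental prolactin relative, at 94.4, 96.4 and 94.7 on the cultured arrays and 3.13 and 2.26 on the fresh arrays. Each was read by a single tested probe set, both lay at the floor of the fresh arrays, and whether the signal is that of the named gene was not known here. The other 6 were Cxcl3, Sprr2h, Cth, Fads3, Gsta4 and Il24.

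Among the 12 largest falls, keratins took 4 places (Krt77, Krt15, Krt79 and Krt1). Defb6, a beta-defensin of skin, fell from 99.6 and 99.5 to 50.8, 50.3 and 50.7. Susd2 fell from 99.02 and 99.04 to 20.2, 20.8 and 20.5, and Ifitm6 from 99.03 and 99.2 to 20.4, 22.97 and 20.1. Clca3a2, of the calcium-activated chloride channel regulator family, fell from 99.3 and 99.4 to 59.2, 50.4 and 52.5, and Gm94 from 99.3 and 99.4 to 39.8, 39.2 and 39.7. Rpl38, a ribosomal protein gene, fell from 99.9 and 99.9 to 54.4, 54.1 and 52.8, which sets it apart from the 26 ribosomal genes described above; its probe set is of a kind whose probes can also match other transcripts, and it was the only one tested. Fosb and Alox12e complete the 12.

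The arrays labelled KO offered a second pair of conditions that shares no array with the control comparison, although it shares the processing by condition. Rhoa itself went against the labels in fresh cells, where both arrays labelled KO (signals of 4296 to 4398) lay above both control arrays (3526 to 4059). In culture the arrays labelled KO (7628 to 8209) lay below the control arrays (9240 to 11249), and the position of this probe set relative to the deleted part was not known here. The 2 fresh arrays labelled KO also stood apart from each other, with a mean percentile of 57.9 and 86.3 for the hair follicle list and 53.8 and 70.4 for the melanocyte list. Among 11578 genes tested in both, 82.4% passed in arrays labelled KO, 17% higher and 19.8% lower by at least 10 points. Of the 2158 genes higher by 10 points in control cells 1791 (83.0%) were so in arrays labelled KO too, which is 91.2% of the 1963 found there, and 6 had the opposite sign. Of the 2481 lower ones 2136 (86.1%) were so in arrays labelled KO, 93.3% of 2289, and 9 had the opposite sign. Without the first or the second fresh array labelled KO these shares of control calls were 80.2% and 85.6% upwards and 83.8% and 85.4% downwards. Median differences of lists in arrays labelled KO were 9.80 points for mitosis, 7.81 for DNA replication and 14.8 for wound genes, and -5.54 for spinous and granular and -9.67 for immediate early genes. For the 24 largest differences the arrays labelled KO gave the same direction in each case, for example -90.5 points for Krt15 and 74.1 points for Anxa3. The size for Krt15 includes order within the cultured floor. A test of the difference between both culture effects passed for 292 of 11757 genes (2.48%), and for 31 to 1630 when 1 array was left out, fewest without cultured replicate 3 labelled KO and most without fresh replicate 1 labelled KO.

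**Figure D5:**
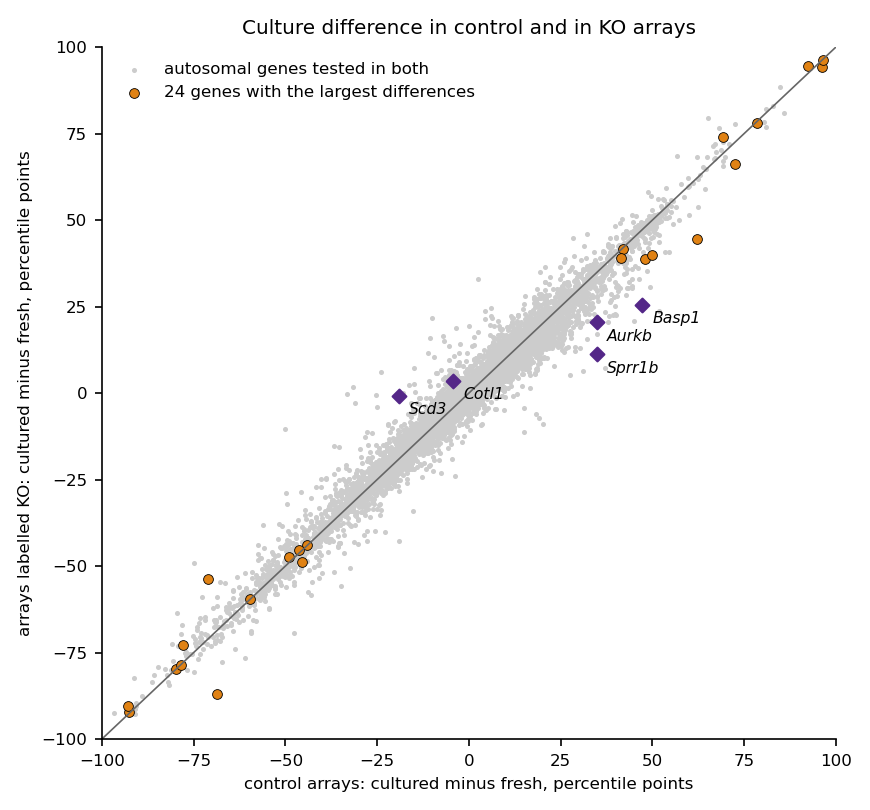
Difference in percentile rank between cultured and fresh cells for each autosomal gene tested under both labels, in control arrays (horizontal axis) and in arrays labelled KO (vertical axis), with the line of equal difference. The 24 genes with the largest differences in control cells (orange) keep their direction in arrays labelled KO. Off the line lie 5 genes that passed the test of the difference between culture effects (purple: Basp1, Aurkb, Sprr1b, Scd3, Cotl1). None of these 5 passed without cultured replicate 2 or 3 labelled KO.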

How the data were processed

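Total RNA of each sample was amplified, labelled with an Affymetrix 3' IVT kit and hybridised to whole-genome mouse arrays, per the labels' protocols. In the deposited table each probe set has 1 intensity per array on a linear scale. The submitters' processing notes name MAS5 as the authors' tool, without version or settings. The table appears to hold 2 separately scaled sets of arrays, so no signal was compared between conditions without ranking or scaling.

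Intensities were turned into percentile ranks (0 to 100) within each array. Probe sets above the 50th percentile on at least 2 of the 5 arrays (26102) were tested 2-sided with limma (version 3.58.1, R 4.3.3), using eBayes with a trend of variance on mean rank, with Benjamini-Hochberg adjustment over all of them and a threshold of 0.05. Only the 3 cultured and 2 fresh control arrays entered the fit. Probe sets were named by the platform annotation, and Entrez identifiers linked these names to current RefSeq symbols (GRCm38.p6); of 45037 probe sets 34945 had 1 symbol, 932 several and 9160 none. Genes on X and Y (627) were left out, and 17516 autosomal genes remained, each represented by its probe set with the highest mean of both group means. "Centred log2 signal" means log2 intensity minus each array's 75th percentile. The number of arrays limits the precision. Data were simulated with the same mean for both groups on quantile normalized signal, with 22929 probe sets tested and 200 changed. There 37% of the 2-fold changes and 68% of the 4-fold ones were found, and 1 call was false. The real arrays differed in scale and floor, and 22292 of their 26102 probe sets were called. The simulated rates therefore give no error rate for the real comparison.

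Deviations of same-numbered cultured and fresh arrays from their group means correlated at -0.01 and 0.00. The deviations of the fresh control arrays are mirror images of each other. These values therefore cannot decide whether replicate numbers in the titles paired cultured with fresh samples. The difference between culture effects in control arrays and arrays labelled KO was a contrast in 1 limma fit over all 10 arrays.

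Members and the 29 gene lists (681 genes on the array, 622 tested) were chosen with earlier results of these data known. Lists are described by counts and medians, with no test. The genes named are the 12 with the largest difference in each direction among called genes whose arrays do not overlap (positions below 55 set to 55), and from each list the first 4 members tested, up to 3 further called members in each direction and up to 2 called members that go against the list. Cdk1, Dusp1 and Zfp36 were named for their promoters, Rhoa as the targeted gene, and Atf4, Cd44, Cxcl2, Lamb3, Sprr1a and Sprr2d after their values were seen. Promoter sequences are from RefSeq, GRCm38.p6.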

Additional observations from a re-analysis of the deposited data

Results flagged for a closer look

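The culture effect differed between control arrays and arrays labelled KO for 13 of the genes described, by a contrast of both effects in 1 limma fit over 10 arrays, adjusted over all probe sets tested. Among all genes 292 of 11757 passed this test (2.48%). A positive contrast means a larger rise, or a smaller fall, in control cells. Each contrast rests on the 2 fresh arrays labelled KO, whose Rhoa signal lay above that of fresh controls and which stood apart in hair follicle and melanocyte genes.

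Of the 35 mitosis genes, 24 passed with a larger rise in control cells and none with a smaller one. When 1 array was left out the count was 4 to 31 of 35, lowest without cultured replicate 3 labelled KO or cultured control replicate 3, and again none was smaller in control cells. The contrast was 14.2 points for Aurkb (SE 2.57, adjusted p = 0.0375), with rises of 34.8 in control arrays and 20.6 in arrays labelled KO. It was 13.6 points for Ncapg (adjusted p = 0.0243), 12.5 points for Nuf2 (adjusted p = 0.0293), 9.11 points for Ccnb2 (adjusted p = 0.0249), 7.55 points for Ccna2 (adjusted p = 0.0247) and 7.13 points for Cdk1 (adjusted p = 0.0386). These 6 rose under both labels. Over the 35 mitosis genes, mean percentiles were 92.2 to 93.0 on cultured control arrays and 91.0 to 92.0 on cultured arrays labelled KO. On the fresh arrays they were 75.5 and 72.9 for controls and 80.3 and 80.9 for those labelled KO. The labels thus lay farther apart in fresh cells than in culture, where all arrays were near the top of the range.

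Among the other genes, Sprr1b had a contrast of 23.5 points (SE 3.67, adjusted p = 0.026), with rises of 34.8 in control arrays and 11.3 in arrays labelled KO. Basp1 had 21.6 points (SE 4.11, adjusted p = 0.0432), Fscn1 16.7 points (SE 2.07, adjusted p = 0.014) and Sprr2h 9.95 points (SE 0.824, adjusted p = 0.00359), each with a smaller rise in arrays labelled KO. Mmp2 had 6.83 points (SE 1.31, adjusted p = 0.0432), and all its cultured positions lay at the floor. Scd3 had -18.4 points (SE 3.57, adjusted p = 0.0451), with differences of -19.2 in control arrays and -0.778 in arrays labelled KO. Cotl1 had -8.07 points (SE 1.26, adjusted p = 0.0259), with -4.47 in control arrays and 3.61 in arrays labelled KO. All 13 kept their sign when any of the 10 arrays was left out. Sprr2h was the only one to pass each time: it alone passed without cultured replicate 2 or 3 labelled KO or without cultured control replicate 3, and 13 passed without fresh replicate 1 labelled KO.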

How the results depend on the processing

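Counts of genes called, 4780 higher and 5082 lower, moved by less than 1.5 times when the scale, the filter, the variance model, the probe set rule or the set of arrays in the fit was changed, other than as given here, and when any single array was left out. Without 1 cultured array 4476 to 4748 were higher and 4815 to 5098 lower. Leaving out a fresh array left only 1 in the fit. Most calls were then still lower on the same probe sets, but most were higher when the filter was applied anew. Without the filter 7227 genes were higher. With a minimum of 10 points 2158 were higher and 2481 lower, and when every probe set of a gene with 2 or more had to be called in 1 direction, a rule added after the data were seen, 1430 were higher and 1035 lower, so 58.0% of those calls were higher against 48.5% before. With the replicate block 4411 were higher and 4739 lower; in the arrays labelled KO the block gave 4069 and 4513 against 4605 and 5066. Leaving out 1 array, an alternative added after the data were seen, the test of the difference between culture effects called 31 to 1630 genes against 292. Among the genes described the block ended 6 calls and turned no direction.

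Scaling to the 75th percentile moved the median of all genes by -0.11 on the log2 scale and quantile normalization by -0.07. On log2 signal minus the 75th percentile the direction turned for these genes described, given as log2 differences. Values above 0 were found for bright genes: Acly 0.66, Actg1 1.30, Actn4 0.57, Atf4 0.79, Cebpg 0.42, Cotl1 0.0373, Cox6c 0.47, Dsc2 0.17, Dsc3 0.87, Dsp 0.48, Eef2 0.73, Fasn 0.82, Hmgcs1 1.38, Hspb1 0.16, Krt14 1.08, Krt17 1.59, Krt5 1.12, Ndrg1 0.47, Ndufa4 0.90, Ndufb8 0.84, Ndufs3 0.87, Pfkp 0.50, Pmvk 0.34, Rpl8 1.52, Rpsa 0.82, Tgfbr1 0.67 and Uqcrc1 0.65. Values below 0 were found for genes near the cultured floor: Cd8a -2.12, Dcn -1.93, Egfl7 -0.44, Eng -1.35, Fabp4 -1.19, Fbln2 -0.73, Gbp3 -1.16, Ifit3 -2.18, Mlana -1.96, Myh4 -1.39, Pdgfra -1.84, Plin5 -2.66, Rptn -2.19, Slc45a2 -2.58, Stat2 -0.37, Tagln -2.73 and Tyr -1.40. When the mean over all probe sets stood for a gene, the difference in percentile points turned to 11.3 for Acaca, 0.639 for Acly, 7.51 for Atf4, 1.13 for Cox6c, 0.967 for Dsc2, 13.8 for Dsc3, 3.63 for Dsp, 3.95 for Gins2, 23.3 for Mgst1, 2.60 for Ndrg1, 7.23 for Pfkp, 7.19 for Rpsa and 36.7 for Tgfbr1, and to -8.19 for Actb, -16.4 for Fads1, -23.1 for Itga6, -3.33 for Pfkl, -12.5 for Plk2, -1.70 for Sc5d, -1.06 for Slc1a5 and -6.14 for Tgfb1. The cause of single turns was not tested. Leaving out 1 array also ended the calls of Fasn, Pmvk, Uqcrc1 and Rpsa (highest adjusted p = 0.141, 0.145, 0.0541 and 0.096). The signal over the floor limits what can be read for genes below the 55th percentile in culture.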
